A study of Homo sapiens with 9 samples.

Results

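RKO colorectal cancer cells given decitabine (5-aza-2'-deoxycytidine, 5-aza-dC) were compared with RKO cells given UHRF1 siRNA and then the histone deacetylase inhibitor trichostatin A (TSA). The comparison used 3 of the 9 one-colour Agilent arrays in the series, namely RKO with AZA, RKO siUHRF1-1 plus TSA and RKO siUHRF1-2 plus TSA, chosen by their titles. siUHRF1-1 and siUHRF1-2 are different siRNAs, so the pair of siUHRF1 + TSA arrays carries 1 array per siRNA. These cells were transfected for 72 h and then kept in 300 nM TSA for 24 h, and the cells of the 5-aza-dC array had 1 µM of the drug for 72 h with no siRNA. The starting point of each gene was its call on 2 siCONT arrays, from cells given control siRNA for 72 h and then mock (ethanol) for 24 h. The remaining arrays, 2 siUHRF1 arrays with mock and 2 siCONT + TSA arrays, each on the same schedule, served as a readout that did not set the classes below. All samples came from 1 cell line, and no source says whether arrays of a group came from separate cultures, so the spread between them may be technical. No array held untransfected, untreated cells, so a siCONT value is also the only baseline for the 5-aza-dC array.

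DNA methyltransferases copy methylation to the new strand after replication. UHRF1 binds hemimethylated DNA and brings DNMT1 to it. 5-aza-dC is built into DNA and traps these enzymes, whereas UHRF1 siRNA removes the recruiting factor. TSA blocks the removal of acetyl groups from histones. RKO is a cell line with dense methylation at many CpG islands. The question was which genes that were silent in siCONT cells came on with both treatments and which with only one of them.

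A gene was called silent when none of its probes was well above background on either siCONT array, and on when at least 1 probe was above background on every array of a treatment. Of 36400 genes on the array, 18708 were silent. The 5-aza-dC array had 3003 of them on (16.1%), and both siUHRF1 + TSA arrays had 660 on (3.53%). On in both treatments were 531 genes (2.84% of the silent genes). On with 5-aza-dC only, with neither siUHRF1 + TSA array, were 2096 genes (11.2%), and on with siUHRF1 + TSA only were 129 (0.69%). A further 376 genes were on with 5-aza-dC and on 1 siUHRF1 + TSA array, 402 were on 1 siUHRF1 + TSA array alone, and 15174 were on in neither treatment. Of the 660 genes on with siUHRF1 + TSA, 80.5% were also on with 5-aza-dC. Of the 3003 genes on with 5-aza-dC, 17.7% were on on both siUHRF1 + TSA arrays.

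The single 5-aza-dC array was brighter than the others, and this bears on the size of the classes. Its 75th percentile signal was 822, against 245 to 338 on the 8 siRNA arrays, and 51.6% of its probes were well above background, against 43.6% to 46.6%. Its slide and scan were its own, apart from those shared by the siRNA arrays, so drug, slide, scan and the absence of siRNA cannot be told apart. With the 5-aza-dC calls limited to its 23456 brightest probes, the mean number above background on the siUHRF1 + TSA arrays, 446 genes were on in both, 1225 with 5-aza-dC only and 214 with siUHRF1 + TSA only. The share of siUHRF1 + TSA genes also on with 5-aza-dC was then 67.6%. With 1 common floor of normalized signal on all arrays, the counts were 480, 1384 and 203, and the share was 70.3%. Among the genes on in both, 85 had a 5-aza-dC signal within 2-fold of the dimmest signal called above background on that array.

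**Figure D1:**
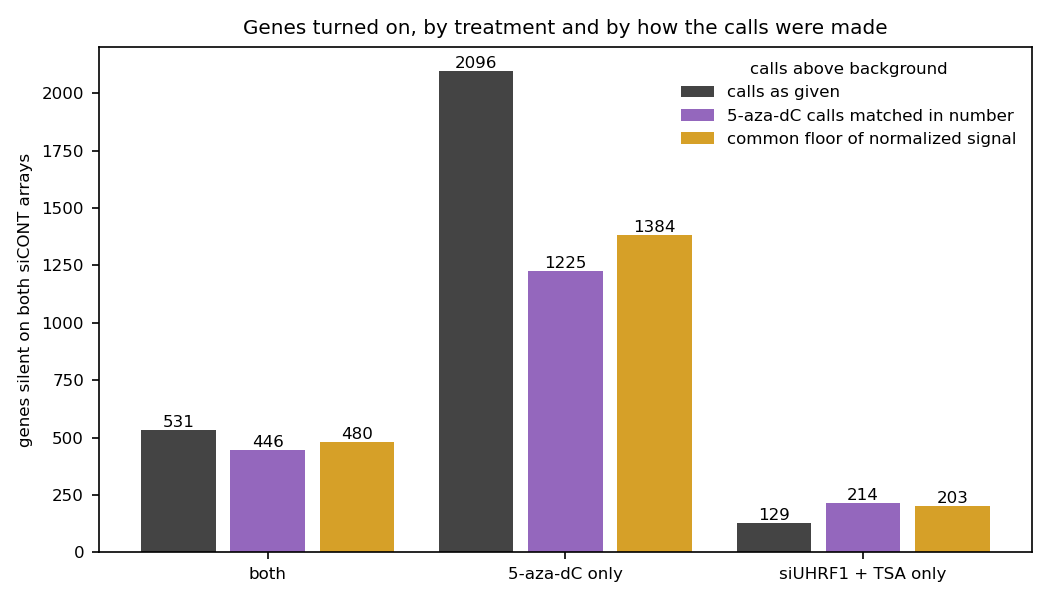
Number of genes silent on both siCONT arrays that were on in both treatments, with 5-aza-dC only or with siUHRF1 + TSA only (vertical axis, genes), for the calls as given, for 5-aza-dC calls matched in number and for a common floor. The 5-aza-dC only class fell from 2096 to 1225 or 1384 genes under the other calls, and the siUHRF1 + TSA only class went from 129 to 214 or 203.

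The sequences upstream of genes of each class described below are shown with every CpG, the site of DNA methylation, in capitals. Each is the 200 bases before the transcript start (RefSeq, GRCh38.p14, 5′ to 3′), and all carry the identity of the gene only, since methylation was not measured on these arrays. For genes on in both treatments, the windows of the cancer-testis genes GAGE12F and SPANXB1 and of the germ cell transcription factor SOHLH1 held 7, 5 and 16 CpGs.
GAGE12F, chrX:49560642-49560841, plus strand: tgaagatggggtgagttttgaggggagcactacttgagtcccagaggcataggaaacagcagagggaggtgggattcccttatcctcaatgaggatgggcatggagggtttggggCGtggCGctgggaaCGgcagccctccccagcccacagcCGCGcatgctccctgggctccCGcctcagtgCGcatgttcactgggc
SPANXB1, chrX:141002394-141002593, plus strand: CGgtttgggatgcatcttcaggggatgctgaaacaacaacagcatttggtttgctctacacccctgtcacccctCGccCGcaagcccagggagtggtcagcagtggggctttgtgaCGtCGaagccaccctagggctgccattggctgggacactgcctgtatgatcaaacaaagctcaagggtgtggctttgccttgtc
SOHLH1, chr9:135699482-135699681, minus strand: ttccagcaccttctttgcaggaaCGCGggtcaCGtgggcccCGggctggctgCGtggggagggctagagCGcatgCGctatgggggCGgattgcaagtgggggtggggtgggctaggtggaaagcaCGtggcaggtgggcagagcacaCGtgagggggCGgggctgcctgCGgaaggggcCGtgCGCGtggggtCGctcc
For genes on with 5-aza-dC only, the windows of the PRAME family gene PRAMEF4 and of the homeobox genes GBX2 and HOXD13 held 2, 23 and 20 CpGs.
PRAMEF4, chr1:12886202-12886401, minus strand: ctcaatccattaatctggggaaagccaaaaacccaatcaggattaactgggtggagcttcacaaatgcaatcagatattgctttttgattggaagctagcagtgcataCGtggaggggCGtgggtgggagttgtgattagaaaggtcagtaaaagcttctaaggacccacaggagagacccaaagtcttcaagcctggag
GBX2, chr2:236168387-236168586, minus strand: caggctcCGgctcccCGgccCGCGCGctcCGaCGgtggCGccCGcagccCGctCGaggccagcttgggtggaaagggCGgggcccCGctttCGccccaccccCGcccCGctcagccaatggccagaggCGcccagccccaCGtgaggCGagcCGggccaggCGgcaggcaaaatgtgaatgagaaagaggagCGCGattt
HOXD13, chr2:176092521-176092720, plus strand: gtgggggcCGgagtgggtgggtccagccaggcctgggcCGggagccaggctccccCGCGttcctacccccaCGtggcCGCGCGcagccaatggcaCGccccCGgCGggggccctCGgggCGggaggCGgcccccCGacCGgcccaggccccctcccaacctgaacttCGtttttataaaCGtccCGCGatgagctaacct
For genes on with siUHRF1 + TSA only, the windows of AKR1C1, an aldo-keto reductase, AGT, which encodes angiotensinogen, and PSAPL1 held 2, 6 and 4 CpGs.
AKR1C1, chr10:4963215-4963414, plus strand: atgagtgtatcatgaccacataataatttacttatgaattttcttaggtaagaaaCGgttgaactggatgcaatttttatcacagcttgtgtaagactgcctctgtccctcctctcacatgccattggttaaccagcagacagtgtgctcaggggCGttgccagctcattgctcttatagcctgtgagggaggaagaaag
AGT, chr1:230714123-230714322, minus strand: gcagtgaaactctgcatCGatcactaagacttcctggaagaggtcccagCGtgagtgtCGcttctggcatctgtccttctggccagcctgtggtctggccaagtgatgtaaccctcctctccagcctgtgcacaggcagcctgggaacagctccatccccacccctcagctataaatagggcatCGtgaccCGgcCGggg
PSAPL1, chr4:7434931-7435130, minus strand: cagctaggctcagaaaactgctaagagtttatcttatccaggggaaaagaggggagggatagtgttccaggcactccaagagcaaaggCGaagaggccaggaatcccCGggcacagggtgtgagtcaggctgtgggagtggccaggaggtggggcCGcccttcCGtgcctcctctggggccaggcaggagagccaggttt
Promoter windows were found for 254 of 354, 840 of 1099 and 53 of 73 of the protein-coding genes with standard symbols in the 3 classes. These shares, 71.8%, 76.4% and 72.6%, were under the 80% set as a minimum, so a comparison of CpG content between classes is void.

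The genes on in both treatments were led by germline genes of the X chromosome. By the smaller of the lower limits of the fold over siCONT, the first 10 were GAGE12F, CTAG1A, SPANXB1, XAGE1A, IGF2, SOHLH1, CTAG2, TIMP2, SPANXA1 and TKTL1. Values are log2 signals minus the 75th percentile of the array. GAGE12F, of the GAGE family of cancer-testis antigens, read -5.27 and -5.78 on the siCONT arrays, 4.05 and 3.76 on siUHRF1-1 + TSA and siUHRF1-2 + TSA, and 6.25 with 5-aza-dC. The treated arrays lay far from siCONT, and the lower limits were at least 299-fold for siUHRF1 + TSA and at least 1524-fold for 5-aza-dC. These limits, and all such limits and counts of them below, hold for 75th percentile scaling only. Spike-in scaling would lower every limit of 5-aza-dC over another group. GAGE12F was also on on both siUHRF1 arrays (1.25 and 1.37) and below background on both siCONT + TSA arrays (-4.29 and -6.21).

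CTAG1A, the NY-ESO-1 antigen gene, read 2.93 and 3.34 with siUHRF1 + TSA and 4.85 with 5-aza-dC, from -5.35 and -6.26 in siCONT. SPANXB1, a sperm protein gene, read 3.35 and 2.59 with siUHRF1 + TSA and 6.26 with 5-aza-dC, from -5.90 and -6.11. SOHLH1 read 1.84 and 1.87 with siUHRF1 + TSA and 3.81 with 5-aza-dC, from -6.29 and -6.25. The 3 genes were thus higher on the 5-aza-dC array than on either siUHRF1 + TSA array. In limma with Benjamini-Hochberg adjustment, the difference passed for SPANXB1 (3.29, SE 0.30, adjusted p = 0.000648) and SOHLH1 (1.96, SE 0.34, adjusted p = 0.00596) and not for CTAG1A (1.72, SE 0.70, adjusted p = 0.0952). The SOHLH1 difference no longer passed with spike-in scaling (0.42), and that of CTAG1A passed with normexp (1.93). GAGE, CTAG, SPANX and XAGE genes lie in sets of near-identical copies, so such a probe may read several of them.

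Outside the cancer-testis genes, IGF2, the imprinted growth factor gene on chromosome 11, read 2.44 and 2.55 with siUHRF1 + TSA and 3.19 with 5-aza-dC, from -4.76 and -4.86. The difference between the treatments did not pass for IGF2 (0.69, SE 0.52, adjusted p = 0.318 in limma). TIMP2, which encodes an inhibitor of matrix metalloproteinases, read 0.54 and 0.99 with siUHRF1 + TSA and 1.98 with 5-aza-dC, from -6.64 and -6.53. Its difference of 1.21 (SE 0.34, adjusted p = 0.0308 in limma) took the opposite sign, -0.32, under spike-in scaling. TKTL1, a transketolase-like gene, read 0.17 and 0.14 with siUHRF1 + TSA and 5.14 with 5-aza-dC, from -4.63 and -4.11, a difference of 4.98 (SE 0.40, adjusted p = 0.000381 in limma). Of these 10 genes, 9 were on on both siUHRF1 arrays and SPANXA1 on 1 of them, and none was on on a siCONT + TSA array.

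**Figure D2:**
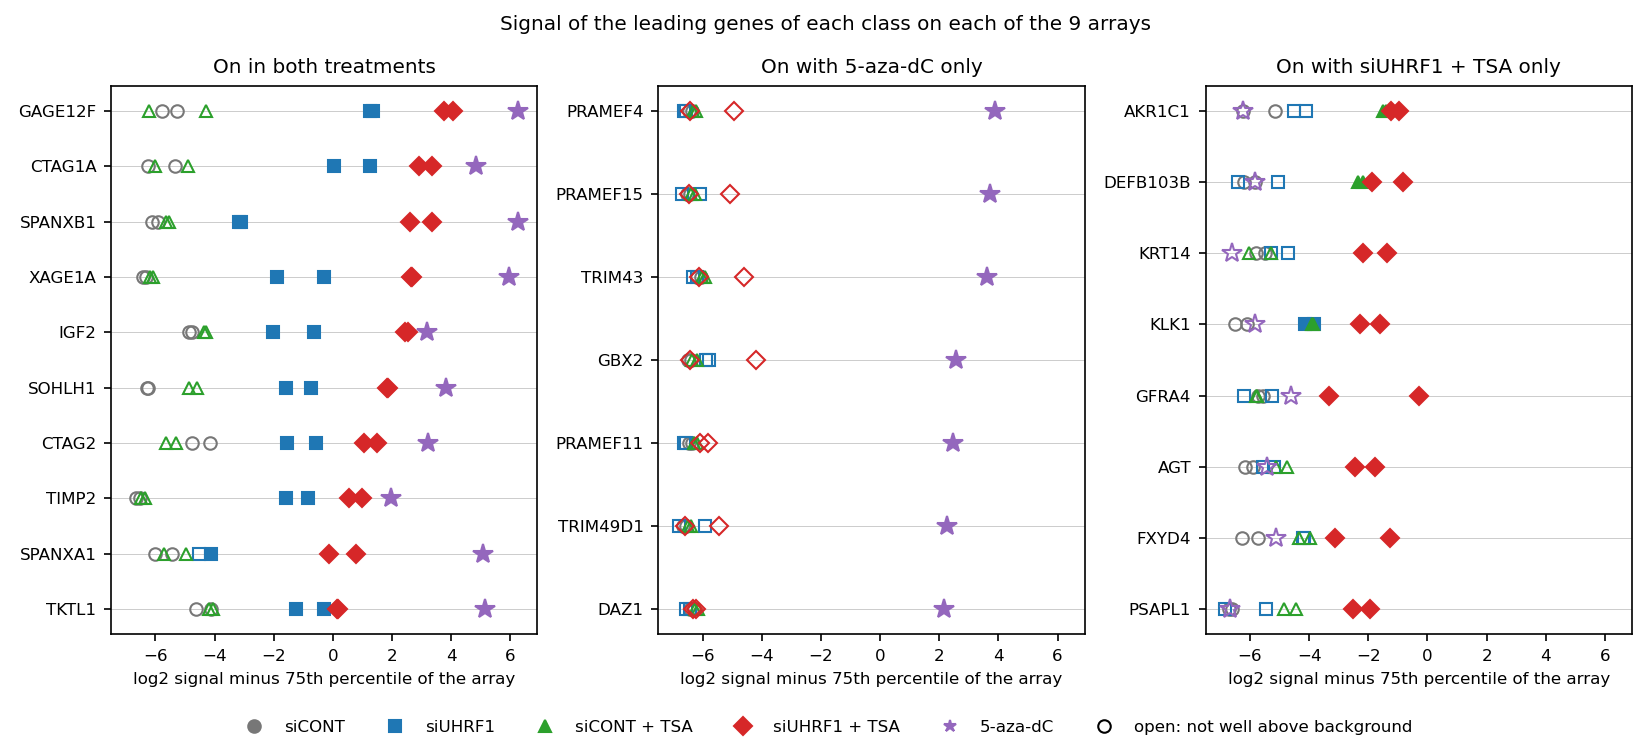
Log2 signal minus the 75th percentile of the array (horizontal axis) of the leading genes of each class on the 9 arrays, with open symbols where the probe was not well above background. Genes on in both show siUHRF1 arrays between siCONT and siUHRF1 + TSA, while genes on with 5-aza-dC only, such as PRAMEF4 at 3.88, show all siRNA arrays at background.

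Among the 531 genes on in both, the median log2 signal was -5.66 and -5.70 on the siCONT arrays, -3.06 and -3.07 on the siUHRF1 + TSA arrays and -2.28 with 5-aza-dC. By limma, 5-aza-dC was higher than siUHRF1 + TSA for 191 of the 531 (36.0%) and lower for 38 (7.16%). Over all 27171 probes tested, 44.4% were called, 18.9% higher and 25.5% lower with 5-aza-dC. The median difference of the 531 genes was 0.59, against -0.05 over all genes. This median changed sign with the processing. It was -0.15 with normexp background correction, where 146 genes were higher and 95 lower, and -0.95 with spike-in scaling, where 89 were higher and 247 lower. Spike-in scaling shifts each array by 1 constant, so it lowered every difference by the same amount and moved the median of all probes from -0.07 to -1.60. Relative to the median of all genes, the 531 genes lay 0.63 above it, a value that such a shift cannot change, and 0.14 above it with normexp. These genes and their probes were chosen by calls on the same 3 treated arrays. The counts and medians of this class therefore describe it and are no separate test, and the same holds for limma values of genes named for their class. The 5-aza-dC group holds 1 array, so limma takes its spread from the other groups. Those groups share 1 slide and scan, so this spread holds no part between slides. The adjusted p-values therefore do not measure how far repeated 5-aza-dC arrays would differ. This spread also pools unlike pairs. The median absolute log2 gap within the pair was 0.084 for siCONT and 0.089 for siCONT + TSA. For the pairs with different siRNAs it was 0.27 (siUHRF1) and 0.20 (siUHRF1 + TSA). The pooled spread may thus be too small for this contrast.

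The genes with the largest differences in favour of 5-aza-dC within this class were HSPA1A, TRIM49, RHOXF2, LDOC1 and FMR1NB. HSPA1A, the inducible HSP70 chaperone gene, was below background on all 6 arrays without 5-aza-dC or siUHRF1 + TSA (-6.56 to -6.18), read -3.68 and -2.78 with siUHRF1 + TSA, and 5.03 with 5-aza-dC. The difference was 8.26 (SE 0.34, adjusted p = 3.14e-05 in limma). HSPA1A has a near-identical neighbour, HSPA1B, whose transcripts the probe may also read. RHOXF2, a germline homeobox gene on the X chromosome, read -3.13 and -3.17 with siUHRF1 + TSA and 3.76 with 5-aza-dC. TRIM49, LDOC1 and FMR1NB differed by 7.42, 6.23 and 6.09, so these genes passed the call in both treatments at very different signals.

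In the other direction stood ARHGDIB, ACOX2, TMT1A, TMEM221 and ASB9. The ARHGDIB signal on the 5-aza-dC array was near the dimmest called above background there (-4.88). It lay under the dimmest such signals of the siCONT arrays (-4.36 and -4.28), so ARHGDIB had no positive lower limit of 5-aza-dC over siCONT. ARHGDIB read -1.06 and -1.24 with siUHRF1 + TSA and -4.68 with 5-aza-dC (difference -3.53, SE 0.20, adjusted p = 0.000103 in limma). ACOX2, a peroxisomal oxidase gene, read -0.14 and -0.60 with siUHRF1 + TSA and -3.82 with 5-aza-dC (difference -3.45, SE 0.26, adjusted p = 0.000291 in limma). ACOX2 was already on on both siCONT + TSA arrays (-1.09 and -1.20). TMEM221 was 1 of 3 genes that entered the class through different probes in the 2 treatments. Its probe shown was below background with 5-aza-dC (-5.41). The 2 other TMEM221 probes were on with 5-aza-dC and not on both siUHRF1 + TSA arrays, so the lower call holds for the shown probe only.

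**Figure D3:**
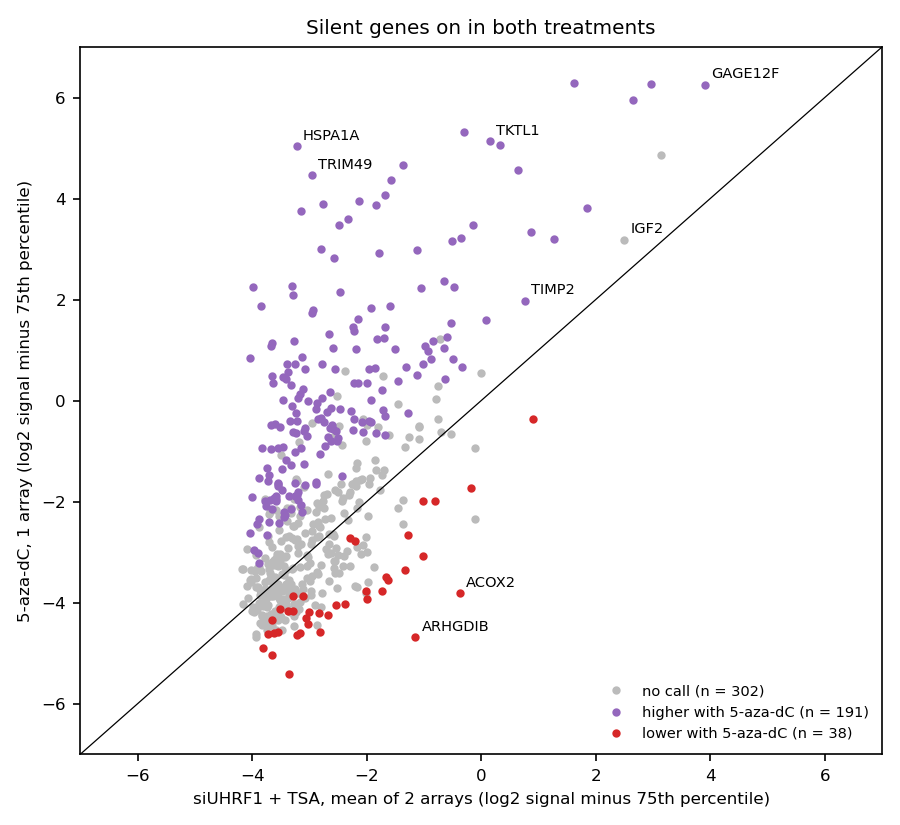
Each of the 531 genes on in both treatments, by its mean log2 signal on the 2 siUHRF1 + TSA arrays (horizontal axis) and its log2 signal on the 5-aza-dC array (vertical axis), both minus the 75th percentile of the array. The 191 genes called higher with 5-aza-dC lie above the line of equal signal and reach 6.26 for SPANXB1, and the 38 called lower lie under it.

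The genes on with 5-aza-dC only included PRAME family, TRIM and germ cell genes. By the lower limit of the fold over siUHRF1 + TSA, they were led by PRAMEF4, PRAMEF15, TRIM43, GBX2, PRAMEF11, TRIM49D1 and DAZ1, and each of these probes was below background on all 8 siRNA arrays. PRAMEF4 read 3.88 with 5-aza-dC and -6.44 and -4.95 with siUHRF1 + TSA, at least 285-fold higher with 5-aza-dC. GBX2 read 2.55 with 5-aza-dC and -4.18 and -6.44 with siUHRF1 + TSA, at least 110-fold. DAZ1, a germ cell RNA-binding protein gene with near-identical copies, read 2.17 with 5-aza-dC and -6.34 and -6.22 with siUHRF1 + TSA. PRAMEF and TRIM49 genes also belong to multicopy families.

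Of the 2096 genes, 818 had a lower limit over siUHRF1 + TSA of over 2-fold in favour of 5-aza-dC and 435 of over 4-fold. Over siCONT, 1652 of the 2096 had a positive lower limit on the log2 scale. For the rest, the 5-aza-dC signal was no higher than the siCONT value used for that limit. The median 5-aza-dC signal of the class was -3.67, where the dimmest signal called above background on that array was -4.88. So many genes of this class stood near the call threshold of the brighter array, and 1223 remained when their 5-aza-dC signal had to be 2-fold over that floor, an alternative chosen after the data were seen.

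The genes on with siUHRF1 + TSA only were led by AKR1C1, DEFB103B, KRT14, KLK1, GFRA4, AGT, FXYD4 and PSAPL1. AKR1C1 read -0.96 and -1.25 with siUHRF1 + TSA, -6.24 with 5-aza-dC, and -6.24 and -5.17 in siCONT. AKR1C1 was at least 13.7-fold higher with siUHRF1 + TSA than with 5-aza-dC, and it was on on both siCONT + TSA arrays (-1.39 and -1.49). DEFB103B, a beta-defensin gene, followed the same order, with -0.83 and -1.87 for siUHRF1 + TSA, -2.18 and -2.34 for siCONT + TSA and -5.84 for 5-aza-dC. KRT14, a basal keratin gene, read -1.36 and -2.19 with siUHRF1 + TSA and was below background on all other arrays, including -6.61 with 5-aza-dC. AGT read -1.76 and -2.45 with siUHRF1 + TSA and -5.42 with 5-aza-dC, at least 6.83-fold. For GFRA4, a receptor of the GDNF family, the siRNAs gave unlike signals (-0.28 and -3.33), and its difference from 5-aza-dC did not pass in limma (-2.79, SE 1.15). The calls that put GFRA4 in this class came from the same arrays, so this difference is no separate test. No gene of this class reached a lower limit of 10-fold over siCONT, whereas 43 of the 531 genes on in both did with siUHRF1 + TSA and 172 did with 5-aza-dC.

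The siUHRF1 and siCONT + TSA arrays were then read for each class, since no call on them set the classes. Of the genes on in both, 148 (27.9%) were on on both siUHRF1 arrays and 90 (16.9%) on both siCONT + TSA arrays, and 200 (37.7%) were below background on all 4. Of the genes on with 5-aza-dC only, 24 (1.15%) and 6 (0.286%) were on on these pairs, and 1882 (89.8%) were off on all 4. Of the genes on with siUHRF1 + TSA only, 23 (17.8%) were on with siUHRF1 and 25 (19.4%) with siCONT + TSA. Over all silent genes, the shares were 1.38% for siUHRF1 and 0.903% for siCONT + TSA. A gene on with siUHRF1 + TSA has been selected for signal on arrays of the same slide, so no test was made. Read the other way, 124 of 166 genes on with siUHRF1 and on neither siCONT + TSA array (74.7%) were also on with 5-aza-dC. Of 67 genes on with siCONT + TSA and on neither siUHRF1 array, 36 were (53.7%). Over all 18708 silent genes, 3003 (16.1%) were on with 5-aza-dC. These shares rest on the calls of the brighter 5-aza-dC array as given, and their difference was not tested.

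**Figure D4:**
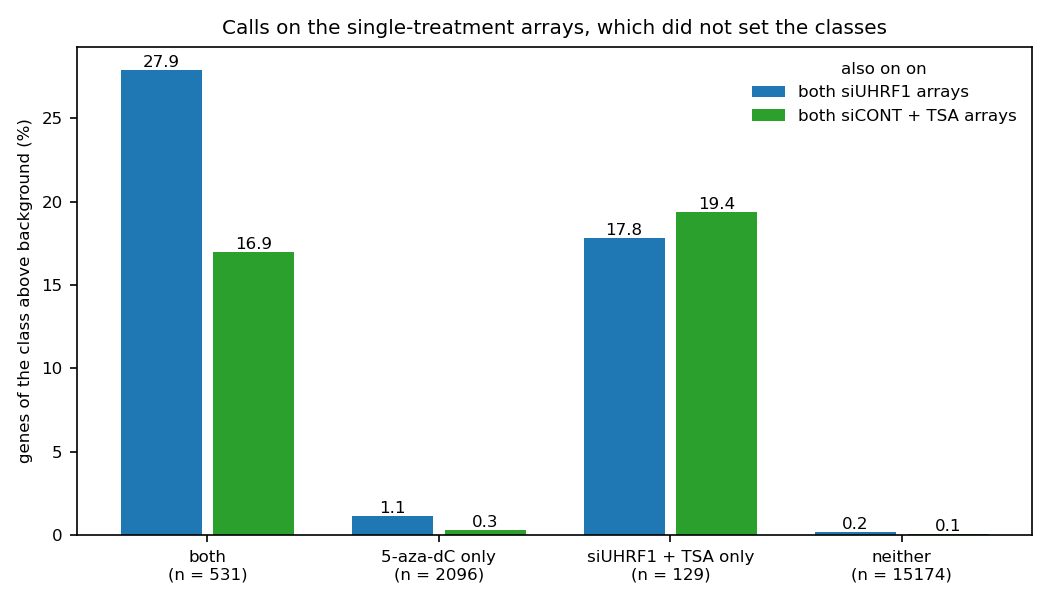
Share of each class (vertical axis, percent of genes) above background on both siUHRF1 arrays and on both siCONT + TSA arrays, neither of which defined the classes. The share on both siUHRF1 arrays was 27.9% for genes on in both treatments and 1.15% for genes on with 5-aza-dC only.

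Chromosome was read as a feature that the classes did not use. Among genes with a chromosome in the RefSeq table, 49 of 390 genes on in both (12.6%) were X-linked. The counts were 86 of 1280 (6.72%) for 5-aza-dC only, 4 of 83 (4.82%) for siUHRF1 + TSA only and 387 of 7672 (5.04%) for all silent genes, with no test. Many of these X-linked genes belong to the cancer-testis families below.

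Gene lists were read as the number of silent members that came on, beside 26.8% with 5-aza-dC and 6.98% with siUHRF1 + TSA over the 6179 silent protein-coding genes. Cancer-testis families (MAGE, GAGE, PAGE, XAGE, SSX, CTAG, CSAG and CT45), expressed in testis and in tumours, had 42 silent members. Of these, 37 were on with 5-aza-dC and 27 with siUHRF1 + TSA, 26 of them in both, among them MAGEA1, MAGEA4, MAGEC2, SSX1, CT45A1 and PAGE2B. PAGE4 was the member on with siUHRF1 + TSA only. On the arrays of single treatments, 7 of the 42 were on on both siUHRF1 arrays and 0 on both siCONT + TSA arrays, beside 145 and 79 of the 6179 silent protein-coding genes.

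Single-copy germline genes act in meiosis and in the silencing of transposons. Of 30 silent members, 23 were on with 5-aza-dC and 4 with siUHRF1 + TSA, namely DMRT1, SOHLH1, SOHLH2 and TDRD1. DAZL, TDRD12, MAEL, DDX4, STRA8, SYCP1, BRDT and PIWIL2 were among the 18 on with 5-aza-dC only. DAZL, a germ cell RNA-binding protein gene, read 1.68 with 5-aza-dC and -5.88 and -6.44 with siUHRF1 + TSA, at least 62.2-fold. MAEL, of the piRNA pathway, read 1.39 with 5-aza-dC and -5.20 and -5.32 with siUHRF1 + TSA, at least 50.7-fold. HORMAD1 and SYCE1, of the meiotic chromosome axis and synaptonemal complex, were in the same class.

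Imprinted genes had 10 silent members, of which 9 were on with 5-aza-dC and 2 with siUHRF1 + TSA (IGF2 and MAGEL2). SGCE, NDN and PEG10 were on with 5-aza-dC only, at 0.25, 0.07 and -0.77, and lay between -6.38 and -5.37 with siUHRF1 + TSA, with lower limits of at least 23.0-, 20.4- and 11.4-fold. HOX genes, which set position along the body axis, had 11 silent members, 7 on with 5-aza-dC and 0 with siUHRF1 + TSA. HOXD13 read 0.42 with 5-aza-dC and -6.42 and -6.43 with siUHRF1 + TSA. Zinc finger ZNF genes had 38 of 81 silent members on with 5-aza-dC and 4 with siUHRF1 + TSA, and ZNF134 and ZNF256 were on with 5-aza-dC only at -0.21 and -0.21. Clustered histone genes had 6 of 7 on with 5-aza-dC and 1, H1-1, with siUHRF1 + TSA.

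Of 9 silent inducible heat shock genes, 6 were on with 5-aza-dC and 4 with siUHRF1 + TSA. HSPA2, a testis-enriched HSP70 gene, was on with 5-aza-dC only, at 0.17, while HSPB3 and HSPB8 were on with siUHRF1 + TSA only. Of 25 silent clustered protocadherins, adhesion genes of neurons, 10 were on with 5-aza-dC and 6 with siUHRF1 + TSA, and all 6 were shared. Of 25 silent neuronal and synaptic genes, 8 and 1 were on, with INA at -0.73 with 5-aza-dC only and CHRNB2 with siUHRF1 + TSA only. Of 38 silent keratins, 10 and 6 were on, and KRT19, a keratin of simple epithelia, was in both, at -2.01 and -2.45 with siUHRF1 + TSA and -0.59 with 5-aza-dC.

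**Figure D5:**
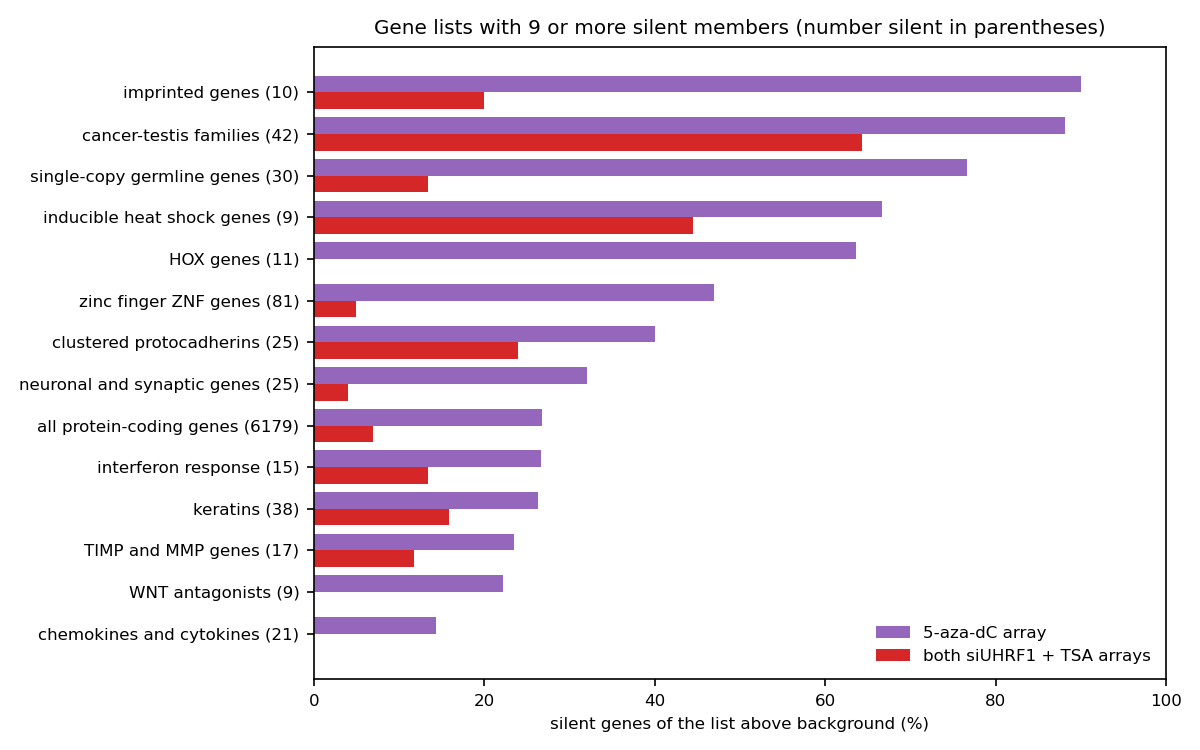
Share of the silent members of each gene list (horizontal axis, percent) on on the 5-aza-dC array and on both siUHRF1 + TSA arrays, for lists with 9 or more silent members and for all protein-coding genes. Cancer-testis families had 37 and 27 of 42 members on, and single-copy germline genes 23 and 4 of 30.

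Interferon response genes had 15 silent members, 4 on with 5-aza-dC and 2 with siUHRF1 + TSA. HERC5, an ISG15 ligase gene, was on with 5-aza-dC only (-0.97, at least 9.88-fold), IFIT3 with siUHRF1 + TSA only (-3.08 and -2.70), and IFI27 in both. Chemokines and cytokines had 3 of 21 on with 5-aza-dC and 0 on both siUHRF1 + TSA arrays. CCL20 showed how far these arrays could part, at -1.26 with siUHRF1-1 and -6.13 with siUHRF1-2. WNT antagonists had 2 of 9 on with 5-aza-dC (DKK3 and SFRP1) and 0 with siUHRF1 + TSA. TIMP and MMP genes had 4 and 2 of 17 on, with MMP1 beside TIMP2 in both. Globins had 2 and 1 of 4 on, metallothioneins 1 and 1 of 2 (MT1G), DNA methylation genes 2 and 1 of 3, with TET1 in both, and p53 targets 1 and 0 of 1 (SPATA18).

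Of 9 genes that the study names as silenced in its cells, a list chosen by the study and so no independent evidence, 6 were silent here. Of these, 3 were on with 5-aza-dC and 0 on both siUHRF1 + TSA arrays, though 2 were on on 1 of those arrays. The study read its silenced genes by RT-PCR, a different measure from a detection call on an array. It reports that UHRF1 depletion plus TSA restored their expression in RKO cells, which these calls do not test. UCHL1, a ubiquitin hydrolase gene, read 6.39 with 5-aza-dC, -4.71 with siUHRF1-1 + TSA (below background) and -3.26 with siUHRF1-2 + TSA (above it), from -6.70 and -6.61 in siCONT, at least 1679-fold for 5-aza-dC. The difference between the treatments for UCHL1 was 10.38 (SE 0.53, adjusted p = 7.41e-05 in limma). GATA5 read -2.53 with 5-aza-dC and was on with siUHRF1-1 + TSA (-3.65) and not with siUHRF1-2 + TSA (-4.47). SFRP1 was on with 5-aza-dC only, at -3.46. The differences of GATA5 (1.53) and SFRP1 (2.34) passed the test, but changed sign to -0.05 and -0.28 with normexp background correction. SFRP2, SFRP5 and TIMP3 were on in neither treatment.

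DKK1, GATA4 and NEURL1 were above background on all 9 arrays. DKK1, a WNT inhibitor gene, read 1.5 and 0.15 with siUHRF1 + TSA and 4.39 with 5-aza-dC, from -0.96 and -0.84 in siCONT (difference between treatments 3.56, SE 0.54, adjusted p = 0.00376 in limma). The differences of GATA4 and NEURL1 between treatments did not pass (-0.36 and -0.03, adjusted p = 0.246 and 0.872 in limma), but passed with spike-in scaling (-1.89 and -1.56).

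Of the 7 CIMP markers measured, the genes used to define the CpG island methylator phenotype, 4 were silent. IGF2 and RUNX3 were on in both, CACNA1G with 5-aza-dC only at -4.00, near the floor, and NEUROG1 in neither. IGF2, RUNX3, CACNA1G and CDKN2A had 2 probes each. For RUNX3 and CDKN2A, the probe not shown was on with 5-aza-dC and not on both siUHRF1 + TSA arrays. For IGF2 and CACNA1G, it was on in neither treatment. RUNX3, a transcription factor gene, read -3.41 and -3.52 with siUHRF1 + TSA and 0.47 with 5-aza-dC, from -6.19 and -6.44 (difference 3.94, SE 0.57, adjusted p = 0.00324 in limma). CDKN2A, the p16 gene, was above background on all arrays and read -0.55 and -0.50 with siUHRF1 + TSA and 2.80 with 5-aza-dC, a difference of 3.33 (SE 0.28, adjusted p = 0.000488 in limma). SOCS1 differed by 1.26 (adjusted p = 0.0134 in limma), with the opposite sign, -0.27, under spike-in scaling. The difference of CRABP1 did not pass (0.56, SE 0.63, adjusted p = 0.502 in limma).

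The siRNA target was read on every array. UHRF1 read 2.69 and 2.69 in siCONT, 0.36 and 0.07 with siUHRF1, 2.87 and 2.86 with siCONT + TSA, -0.34 and -0.62 with siUHRF1 + TSA, and 3.69 with 5-aza-dC. The 4 arrays with UHRF1 siRNA lay below the others, with no overlap. DNMT1 read 1.98 and 2.05 with siUHRF1 + TSA and 2.70 with 5-aza-dC (difference 0.68, SE 0.11, adjusted p = 0.00421 in limma). CDKN1A, the p21 gene, read 0.17 and 0.30 with siUHRF1 + TSA and 0.73 with 5-aza-dC (0.49, adjusted p = 0.0382 in limma), which no longer passed with normexp (0.47). Under spike-in scaling both signs turned, to -0.85 for DNMT1 and -1.04 for CDKN1A. ACTB and GAPDH, common reference genes, differed by -0.69 (adjusted p = 0.0216) and -0.17 (adjusted p = 0.317) in limma. The ACTB difference no longer passed with quantile normalization (-0.11) or normexp (-0.55), and that of GAPDH passed with spike-in scaling (-1.70).

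Among genes above background on all 9 arrays, the largest differences in favour of 5-aza-dC were PRAMEF5, VCY, VCX2, TUBA3D and CRIP1. TUBA3D, a testis tubulin gene, read 0.37 and 0.32 with siUHRF1 + TSA and 5.60 with 5-aza-dC, from -0.37 and -0.47 (difference 5.25, SE 0.22, adjusted p = 3.23e-05 in limma). VCX2, of the X-linked VCX family, read 2.68 and 3.25 with siUHRF1 + TSA and 8.32 with 5-aza-dC, from -2.43 and -2.53. In the other direction were AKR1C3, HLA-DMB, PMEL, TRAPPC9 and AHNAK2. AKR1C3, a relative of AKR1C1, read 0.48 and -0.09 with siUHRF1 + TSA and -4.52 with 5-aza-dC, from -2.98 and -3.15. HLA-DMB, which helps load antigen peptides, read 0.92 and -0.06 with siUHRF1 + TSA and -3.80 with 5-aza-dC. AKR1C3, HLA-DMB and PMEL were also higher on the siCONT + TSA arrays than on the siCONT arrays, at -0.31 and -0.30, 0.44 and 0.44, and 0.42 and 0.46.

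The same lists were read for the difference between the treatments, beside 19.8% of 20414 genes higher and 25% lower with 5-aza-dC. S phase genes were higher for 30 of 43 and lower for 0, and with spike-in scaling higher for 3 and lower for 18. Among the 30 were RRM2, CDC6 and MCM4, and also UHRF1, which the siRNA depletes on both siUHRF1 + TSA arrays. The list median was 1.01, or 1.05 above that of all genes, and it was -0.53 before this subtraction with spike-in scaling. Metallothioneins were lower for 9 of 11 and higher for 1, and interferon response genes lower for 9 and higher for 2 of 21. Clustered protocadherins were lower for 15 and higher for 2 of 31, a count over measured genes that mixes silent and expressed members. G2/M genes were higher for 15 and lower for 5 of 54, and p53 targets higher for 12 and lower for 3 of 21. With spike-in scaling, G2/M genes were lower for 44 of 54 and p53 targets for 14 of 21. Most probes were lower under that scaling, 21269 of the 27175 entered, and 1442 were higher. The spike-in counts of S phase, G2/M and p53 genes stand beside these and are not particular to the lists.

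Markers of other cell types were read on the same arrays. Among epithelial markers, KRT8, KRT18 and CDX2 were on on every array and CDH1, VIL1 and LGR5 on none, and EPCAM was on on 1 siCONT array and the 5-aza-dC array. Of 7 fibroblast markers, 1 or 2 were on on the siCONT arrays, 6 on each siUHRF1 + TSA array and 3 on the 5-aza-dC array, with COL3A1 at background throughout. DCN and PDGFRB were thus among the genes on with siUHRF1 + TSA only, and COL1A2 and THY1 among those on in both. LUM, on on 1 siCONT array and so not silent, was on on both siUHRF1 + TSA arrays and off with 5-aza-dC. Of 6 blood cell markers, 1 or 2 were on on the siCONT arrays, 2 or 3 on the siUHRF1 + TSA arrays and 5 on the 5-aza-dC array, with MS4A1 at background throughout. Of the silent members, 2 of 5 epithelial, 2 of 5 fibroblast and 3 of 4 blood cell markers were on with 5-aza-dC. On both siUHRF1 + TSA arrays, 1 of 5, 4 of 5 and 0 of 4 were on. The shares over all silent protein-coding genes were 26.8% and 6.98%. The part of these markers in the class counts was not tested.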

How the data were processed

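RNA of RKO cells was labelled in 1 colour and hybridised to SurePrint G3 Human GE v2 arrays. Per the labels and file headers, the authors extracted spots with Agilent Feature Extraction 10.7, which subtracts background and removes spatial trends. The deposited intensities are linear and not normalized between arrays. The deposited value table holds the same intensities rounded. The study's normalization of these arrays is not given in the sources used here. The members and gene lists were chosen with earlier results of these data known.

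Signals were set to log2(gProcessedSignal) minus each array's 75th percentile over 50599 non-control probes. Outlier spots were left out and spots of a probe averaged. Above background means gIsWellAboveBG on most of a probe's spots. No spot was saturated. Probes were named by RefSeq accession (28174), symbol (2618), synonym (620) or the file's own name (19187). The number of arrays limits the precision.

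A fold "at least" was the bright group's mean over the dim group's mean of, per array, the higher of the dimmest signal above background and the probe's own. A gene was shown by the probe of highest mean on the treated arrays among those on. limma 3.58.1 (R 4.3.3; lmFit, eBayes) was fitted to all 9 arrays in 5 groups for probes above background on every array of at least 1 group, with Benjamini-Hochberg adjustment at 0.05. On simulated data for 5-aza-dC against siUHRF1 + TSA (27140 probes, 200 changed by 1.5 on the log2 scale), 86 were recovered and 4 of 90 calls were false. The simulated arrays carried no slide, scan or brightness difference, so these counts do not measure false calls in the real comparison.

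Named were the 10 genes on in both with the largest smaller limit over siCONT, the 8 of each single class with the largest limit over the other treatment, the 5 largest called differences each way among genes on in both and among genes above background everywhere, the study's silenced genes and the CIMP markers, UHRF1, DNMT1, CDKN1A, ACTB and GAPDH, and up to 4 per list with the largest limit over siCONT. An item that these rules would name is not reported here. Where 5191 symbols have several promoter windows, the first listed was used. Other list members are named as examples of a class, chosen after their values were seen. S phase and G2/M lists came from Seurat 5.3.0. Counts were made in Python 3.11.15. Alternatives were other calls, backgrounds, scalings, filters, tests and left-out arrays.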

Additional observations from a re-analysis of the deposited data

Results flagged for a closer look

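The control spots of the 5-aza-dC array stood apart from those of the siRNA arrays. The 7 spike-in probes above background everywhere were 3.23 brighter on the log2 scale on the 5-aza-dC array than the mean of the siCONT arrays, while the siRNA arrays lay between -0.04 and 0.19 of that mean. The 75th percentile of the gene probes was 1.54 higher than in siCONT on the same scale, so gene and spike-in signals did not move by the same amount. The negative control probes had a net signal of 56.7 on the 5-aza-dC array and of 26.4 to 29.7 on the siRNA arrays. The extraction software graded the 5-aza-dC array Evaluate and all others InRange. What set these control signals was not tested.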

How the results depend on the processing

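The number of arrays limits every count, and signals near background limit the classes on with 1 treatment only. With on taken as either siUHRF1 + TSA array, 907 genes were on in both and 531 with siUHRF1 + TSA only, and 63.1% of siUHRF1 + TSA genes were also on with 5-aza-dC (80.5% as reported). With a common floor, 1384 genes were on with 5-aza-dC only, 203 with siUHRF1 + TSA only, and the share was 70.3%. With 5-aza-dC calls matched in number, these values were 1225, 214 and 67.6%. With the software's positive and significant calls, 303 were on with siUHRF1 + TSA only and the share was 70.0%. With 5-aza-dC 2-fold over its floor, chosen after the data were seen, the values were 1223, 214 and 67.6%. With 4-fold, likewise chosen, 316 were on in both, 652 with 5-aza-dC only and 344 with siUHRF1 + TSA only, and the share was 47.9%. Leaving out 1 siCONT or siUHRF1 + TSA array at a time gave 142 to 353 genes on with siUHRF1 + TSA only and shares of 66.8% to 81.9%. The 353 came without siUHRF1-2 + TSA and 308 without siUHRF1-1 + TSA.

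Between the treatments, limma called 12060 probes, 5142 higher and 6918 lower with 5-aza-dC. Spike-in scaling gave 22711 calls, 1442 higher and 21269 lower. No filter on dim probes gave 21046, with 15269 lower. Only the 3 arrays compared gave 5179, 2686 higher and 2493 lower. Calls over 2-fold were 6806, 3312 higher and 3494 lower. Normexp left 2554 higher and 6867 lower, scaling to the median of probes above background 6157 higher and 5759 lower, and probes above background on all 3 treated arrays 3310 higher and 6570 lower. The methods' t-test gave 4927 at an unadjusted p under 0.05 (2398 higher, 2529 lower) and 0, 0 and 0 after Benjamini-Hochberg, and Tukey's test gave 8808. Leaving out any siRNA array gave 10055 to 13911 calls.

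The replicate numbers share an siRNA only between siUHRF1 and siUHRF1 + TSA, where deviations correlated at 0.36. Other group pairs lay between -0.03 and 0.05, so the numbers were not taken as pairs. A random replicate block gave 12095 calls, 5150 higher and 6945 lower.

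Spike-in scaling lowers every difference between the treatments by the same constant, so called positive differences smaller than it change sign by construction. Other named genes were not read under each scaling. Among those that were, CDKN1A (-1.04), DNMT1 (-0.85), GATA5 (-0.0036), SOCS1 (-0.27) and TIMP2 (-0.32) changed sign under spike-in scaling. The calls of SOHLH1 (0.42), CTAG2 (0.40) and GAGE12F (0.82) were lost under it, and GAPDH (-1.70), GATA4 (-1.89) and NEURL1 (-1.56) passed. With normexp, GATA5 (-0.048) and SFRP1 (-0.28) changed sign, for a cause that was not tested, the calls of ACTB (-0.55) and CDKN1A (0.47) were lost and CTAG1A (1.93) passed. With quantile normalization the call of ACTB (-0.11) was lost.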
